A study of Mus musculus with 14 samples.

Results

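The regions described here are the isolated members of a list of SOX10 ChIP regions from a mouse mammary tumor model, meaning those on an autosome that lie 500000 bp or more from both the previous and the next region of the list. They were chosen by position alone, and the end of a chromosome counted as having no neighbour. Of 7929 regions listed, 7855 lay on the 19 autosomes and 293 of these were isolated, a share of 3.73% (exact 95% binomial interval 3.32 to 4.17, counting error only). They were set against 3004 clustered autosomal regions, which had a neighbour less than 10000 bp away. The remaining 4558 autosomal regions had their nearest neighbour at a distance between these limits and are called intermediate.

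The list comes from 2 SOX10 ChIP samples and 1 control sample of PY230 tumors, formed by PY230 cells, a mouse mammary tumor line, after transplantation into mice of the same inbred background. Per the labels, all 3 samples are adult and of strain C57BL6J, and streptavidin beads were used on 500000 SOX10-AVI/BirA cells and 500000 control cells. The BirA enzyme attaches biotin to the AVI tag, so the beads hold the tagged SOX10, and 2 extra washes with 2% SDS were applied. The labels do not say what the control cells carry, how much tagged protein was present or how many mice were used, and all tumors stem from a single cell line. The 11 further samples of the series, 10 with or for H3K27ac from normal mammary cells and 1 tumor input, were not analysed here.

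SOX10 is an HMG-box transcription factor of the SoxE group. It bends DNA at short A/T-rich sites, alone or as a pair of molecules on neighbouring sites, and it directs neural crest, glial and melanocyte development. In the mammary gland it marks fetal stem-like cells and part of the adult epithelium. Genes controlled by such factors often have several bound elements around them, some of them far from the promoter, so the list can be read by how its regions are spaced.

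Each region carries a deposited signal whose unit is not stated. The list is named as a ChIP-ctrl signal, so the values may be net of the control, which the labels do not settle. Signal times width fell on whole multiples of a step of 0.0479 (within 0.05 of a step) in 99.9% of 7282 regions of the list under 1500 bp with a signal above 0. Values of this kind arise from a mean coverage in which each read base adds 1 step. Among 7211 such autosomal regions, 39.2% were also whole multiples of 54 steps, against at most 8.07% for any other length from 40 to 70. The total over a region is therefore also given in read equivalents of 54 steps, a reading of the values and not a count made by the authors. The list is 1 result for the pooled samples, so no value has a replicate error, and the depth of the libraries is unknown. Genes and sequences at these positions were not analysed here, since the gene tables at hand are of another genome build than the mm9 coordinates of the list.

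Most isolated regions had a low signal and few read equivalents, as did autosomal regions in general. Over all 7855 autosomal regions the median signal was 0.0280 and the median of read equivalents 7.52. The median signal of isolated regions was 0.0259 (quartiles 0.0184 and 0.0358, range 0 to 0.398) and their median width 570 bp (quartiles 421 and 774, range 140 to 2208). In read equivalents the median isolated region had 6.0 (quartiles 3.43 and 9.96), and the highest had 32.1. A value under 10 read equivalents was found in 221 of 293 isolated regions (75.4%) and in 1716 of 3004 clustered ones (57.1%). Among the 4558 intermediate regions, the largest class, the share was 69.3%. Under 5 read equivalents were 38.9% of isolated regions (exact 95% binomial interval 33.3 to 44.8) and 24.9% of clustered regions (23.4 to 26.5). Intermediate regions lay between them, at 31.9% (30.5 to 33.2). Together the isolated regions spanned 188 kb, which was 3.0% of the bases covered on the autosomes, and held 2.78% of the summed signal. These values were not compared with background coverage.

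A group of 6 isolated regions stood apart from the other 287, with signals from 0.218 to 0.398, while no other isolated region passed 0.0947. The strongest was chr1:104524791-104524932, a region of 142 bp with a signal of 0.398, which ranked 10 in the whole list. It had empty stretches of 2.40 Mb before it and 3.24 Mb after it. The region chr14:105115039-105115223 followed with a signal of 0.364 over 185 bp, and chr15:47371558-47371697 with 0.282 over 140 bp. The region on chromosome 15 was among the most remote as well as the strongest, with gaps of 2.82 and 3.13 Mb. The signal was 0.236 at chr5:15114196-15114546, over 351 bp, and 0.232 at chr8:15519807-15520124, over 318 bp. The sixth, chr16:3339698-3339837, was the first listed region of its chromosome, had a signal of 0.218 over 140 bp and lay 569 kb from the next region. These 6 regions lay on 6 autosomes and had 11.8 to 32.1 read equivalents, and 3 of them were the narrowest isolated regions of all. Narrow regions of high signal were not confined to this class. Under 300 bp and in the top 1% of autosomal signals were 4 isolated (1.37%), 13 clustered (0.433%) and 15 intermediate regions (0.329%). These shares were not tested, and the 6 regions were not compared with the tumor input.

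Below this group the isolated signals ran on without a break of that size. The next 4 were chr11:90216491-90217023 with a signal of 0.0947, chr7:67159509-67159710 with 0.0841, chr15:65627471-65627753 with 0.0605 and chr1:11990650-11991041 with 0.0575. All 10 of the strongest isolated regions were 533 bp wide or less, with a median of 242.5 bp, and 6 of them were under 300 bp. On the 11 autosomes that held none of these 10, the highest isolated signal lay between 0.0355 on chromosome 19 and 0.0550 on chromosome 4. The region of chromosome 4, chr4:64561738-64563102, was wide for an isolated region (1365 bp) and had 29.1 read equivalents.

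**Figure D1:**
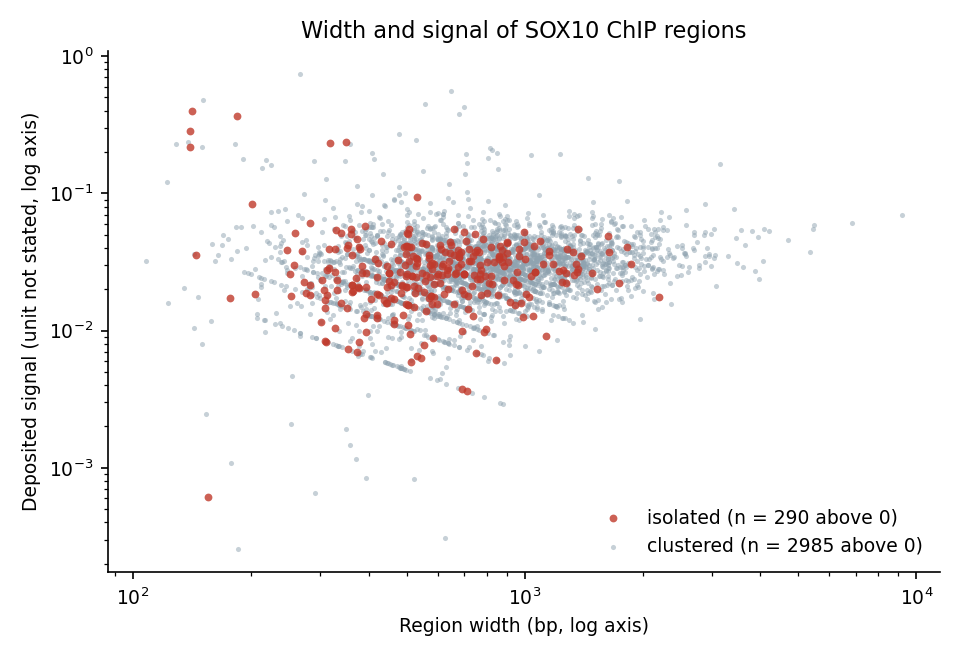
Each point is a region, with its width in bp on the horizontal log axis and its deposited signal on the vertical log axis, for isolated regions in red and clustered regions in grey. The 3 isolated and 19 clustered regions listed at 0 are left out. The 6 isolated regions with a signal of 0.218 or more sit at the upper left, at widths of 140 to 351 bp. Some clustered regions lie in the same corner. The other isolated regions share the cloud of clustered regions but thin out above 1500 bp.

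Isolated regions occurred at both ends of the signal range, as did clustered and intermediate regions. Of all autosomal regions, 1.01% lay in the top 1% by signal (0.0898 or more). Among isolated regions 7 of 293 did, or 2.39% (exact 95% binomial interval 0.966 to 4.86), against 51 of 3004 clustered regions (1.70%, 1.27 to 2.23). The share among intermediate regions was 0.461%. The 1.01% of all autosomal regions lay within the interval of the isolated ones. The top 10% by signal (0.0479 or more) holds 10% of autosomal regions by construction. In it were 24 isolated regions (8.19%, 5.32 to 11.9) and 390 clustered regions (13.0%, 11.8 to 14.2). The share among intermediate regions was 8.16%, nearly that of isolated ones. At the other end, 3 isolated regions (1.02%, 0.212 to 2.96) and 19 clustered regions (0.632%, 0.381 to 0.986) were listed at a signal of 0. So were 0.943% of intermediate regions, which lay within the interval of the isolated ones. The 3 isolated ones were chr8:17587311-17587750, chr8:107867862-107868020 and chr12:75417897-75418221. These differences between shares were not tested.

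By the rule that chose them, the isolated regions lay in wide empty stretches. Their nearest neighbour was at a median distance of 797 kb (quartiles 627 and 1135), and for 95 of 293 it was 1000 kb or more away. For the 283 isolated regions with a neighbour on both sides, the larger gap had a median of 1.76 Mb and both gaps together a median of 2.73 Mb (quartiles 1.79 and 4.36). The remaining 10 were the first or last region of their chromosome. The most remote by its smaller gap was chr7:62111541-62112486, with 5.33 Mb before it and 3.82 Mb after it, a width of 946 bp and a signal of 0.0155. The last region of chromosome 18, chr18:88877050-88877578, lay 3.76 Mb from the region before it and had a signal of 0.0244. Next came chr2:96920109-96920663 with gaps of 3.30 and 4.78 Mb and a signal of 0.0192, chr6:76407785-76408651 with gaps of 3.21 and 5.62 Mb and a signal of 0.0414, and chr14:52726281-52726899 with gaps of 3.04 and 3.17 Mb and a signal of 0.0307. These 5 had 4.13 to 13.9 read equivalents, and none was among the strongest isolated regions.

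Within the isolated regions, remoteness was hardly related to width or signal. Across the 293 regions, Spearman's rho of the smaller gap was 0.021 with width and -0.048 with signal, given as a description over regions that come from the same list. Width and signal had a rho of 0.110 among isolated regions, against 0.191 among clustered ones.

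**Figure D2:**
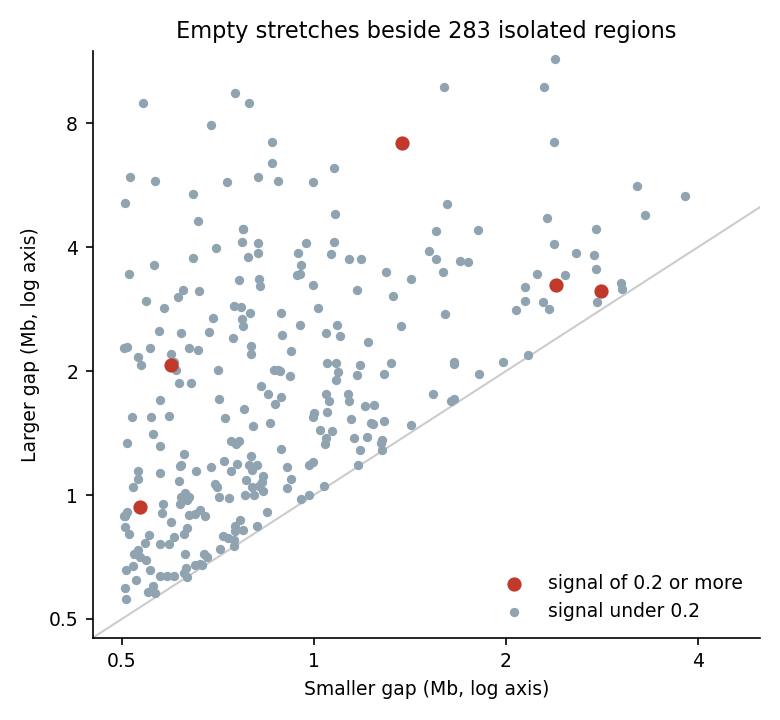
Each point is 1 of the 283 isolated regions with a neighbour on both sides, with the smaller of its gaps in Mb on the horizontal log axis and the larger gap in Mb on the vertical log axis, and the line marks equal gaps. Red points are the 5 regions with a signal of 0.2 or more that have 2 neighbours, and they lie at smaller gaps from 0.535 to 2.82 Mb, across most of the range of the grey points.

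Long gaps were rare between neighbours yet took up most of the autosomes. Of 7836 gaps between neighbouring autosomal regions, 1157 (14.8%) were 500000 bp or longer, and these covered 1742 Mb, or 71.1% of the autosomal length of 2451 Mb. Of the 2314 sides of regions that faced such a gap, 576 belonged to isolated regions and the others to regions with a closer neighbour on their other side. Isolated regions followed each other in places. While 162 had no isolated neighbour, 131 were part of 54 rows of at least 2 consecutive isolated regions. The longest rows held 4 regions each and were named after their values were seen. They spanned 2.53 Mb on chromosome 1 (chr1:5012592-7538588), 4.74 Mb on chromosome 10 (chr10:25637829-30376276), 5.84 Mb on chromosome 6 (chr6:59135224-64972424) and 4.49 Mb on chromosome 9 (chr9:78375285-82869255). Over the 576 sides on which an isolated region had a neighbour, that neighbour was itself isolated in 26.7%, clustered in 13.5% and intermediate in 59.7%. The base for the 26.7% is the 576 of 2314 sides facing such a gap that belonged to isolated regions. The 26.7% (154 of 576) lay near that base, so the rows are not read as a trait of isolated regions.

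The regions nearest to the limit of 500000 bp are given as examples, and those outside it belong to the intermediate class. Just inside it were chr9:65948956-65949991 with a smaller gap of 504051 bp, a width of 1036 bp and a signal of 0.0249, chr2:114526660-114527382 with 504109 bp, 723 bp and 0.0393, and chr13:37068833-37069297 with 505162 bp, 465 bp and 0.0111. Just outside it were chr11:34584710-34585198 with 499920 bp, 489 bp and 0.0525, chr15:35776540-35776888 with 499904 bp, 349 bp and 0.0266, and chr11:17206001-17206809 with 499452 bp, 809 bp and 0.0407.

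Isolated regions were narrower than clustered regions of the same autosome. Their median width was 570 bp (quartiles 421 and 774), against 762.5 bp for clustered regions (quartiles 525 and 1089) and 656.5 bp for intermediate ones. Neighbouring regions are not independent, so the autosome was taken as the unit, and the medians of both classes were compared within the 18 autosomes that held at least 5 regions of each. The median was lower for isolated regions on 16 of 18 autosomes, by a median of -135.5 bp (SD over autosomes 154, range -453 to 79.0). This difference passed a two-sided exact Wilcoxon signed-rank test over autosomes (p = 0.000534, adjusted p = 0.00126 by Benjamini-Hochberg over 3 measures). On chromosome 15 isolated regions had a median of 350.5 bp, against 803.5 bp for clustered ones. On chromosome 3 the medians were 442 bp for isolated and 820 bp for clustered regions, and on chromosome 4 they were 576 bp for isolated and 945 bp for clustered regions. Chromosomes 7 and 9 ran the other way, with 688.5 bp for isolated and 618.5 bp for clustered regions on chromosome 7, and 699 bp for isolated and 620 bp for clustered regions on chromosome 9.

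Wide regions made up a smaller share of isolated than of clustered regions. Regions of 1500 bp or more made up 7 of 293 isolated regions (2.39%, exact 95% binomial interval 0.966 to 4.86) and 314 of 3004 clustered regions (10.5%, 9.38 to 11.6), with 5.66% of intermediate regions between them. Regions under 300 bp made up 21 isolated regions (7.17%, 4.49 to 10.7) and 144 clustered regions (4.79%, 4.06 to 5.62), and the 6.30% of intermediate regions lay within the interval of the isolated ones. These shares were not tested. The widest isolated region, chr16:5134888-5137095, was 2208 bp wide with a signal of 0.0176, where the widest clustered region reached 9185 bp. It was followed by chr9:85348713-85350577 (1865 bp, signal 0.0305) and chr6:62868730-62870550 (1821 bp, signal 0.0407). Chromosome 2 held the next, chr2:151428018-151429756 of 1739 bp with a signal of 0.0223 and chr2:76928832-76930478 of 1647 bp with a signal of 0.0377. Among the narrowest isolated regions were 3 of the 6 strongest, at 140 to 142 bp, along with chr9:78375285-78375429, of 145 bp with 2.00 read equivalents, and chr8:32143854-32144009, of 156 bp with a signal of 0.000614. Isolated regions were also narrower within each of 5 equal classes of signal, with medians of 505 bp for isolated and 587.5 bp for clustered regions in the lowest class, and of 505.5 bp for isolated and 798.5 bp for clustered regions in the highest. These classes pooled all autosomes. The difference ranged from -293 to -82.5 bp over them and was not tested.

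No difference in signal between isolated and clustered regions passed the test over autosomes. Over all regions the median was 0.0259 for isolated regions (quartiles 0.0184 and 0.0358), against 0.0292 for clustered regions (0.0210 and 0.0390) and 0.0275 for intermediate ones. Within autosomes it was lower for isolated regions on 10 and higher on 8 of 18, with a median difference of -0.000932 (SD over autosomes 0.00644, range -0.0180 to 0.00815). The exact Wilcoxon signed-rank test over autosomes gave an adjusted p of 0.369, which does not show that the classes are alike. With the isolation limit at 250 kb, which took in 727 regions, the difference was -0.00133 and just passed (exact signed-rank test, adjusted p = 0.0494).

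Chromosomes 4 and 11 showed the largest deficits of signal in isolated regions, and on both the classes lay in different places. On chromosome 4 the median signal was 0.0212 for 13 isolated regions, against 0.0392 for 394 clustered ones. Of these 13, 8 lay beyond 120 Mb, a part of the chromosome with low signal that held 10 of the 394 clustered regions. There the medians were 0.0194 for isolated and 0.0199 for clustered regions, and before 120 Mb they were 0.0286 for 5 isolated and 0.0394 for 384 clustered regions. On chromosome 11 the median was 0.0268 for 16 isolated regions, against 0.0387 for 245 clustered ones. None of the 16 lay beyond 110 Mb, where 153 clustered regions had a median of 0.0467, and before 110 Mb the 92 clustered regions had a median of 0.0263. The positions of these splits were taken from signals of the same list, so these values are a description. Without both chromosomes the difference in signal over 16 autosomes was -3.34e-05 (exact Wilcoxon signed-rank test, adjusted p = 0.860). Both had the largest deficits, so leaving them out could only shrink the deficit. This value therefore does not show that a difference is confined to them.

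Among the 8 tested autosomes where isolated regions had the higher median signal, the difference was largest on chromosomes 6, 14 and 18. The medians were 0.0345 for 14 isolated and 0.0264 for 115 clustered regions on chromosome 6, and 0.0293 for 13 isolated and 0.0230 for 75 clustered regions on chromosome 14. On chromosome 18 they were 0.0327 for 8 isolated and 0.0272 for 142 clustered regions. Across autosomes with at least 5 isolated regions, the isolated median ranged from 0.0185 on chromosome 16 to 0.0345 on chromosome 6. Compared at like width, in 5 equal width classes of autosomal regions, the isolated median was lower in 4 classes and higher in the middle one (605 to 783 bp, 0.0292 for isolated and 0.0272 for clustered regions). In the narrowest class (98 to 451 bp), which held 30.0% of isolated and 16.8% of clustered regions, the medians were 0.0227 for isolated and 0.0259 for clustered regions. These width classes pooled all autosomes, unlike the comparison within autosomes, and the differences were not tested.

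**Figure D3:**
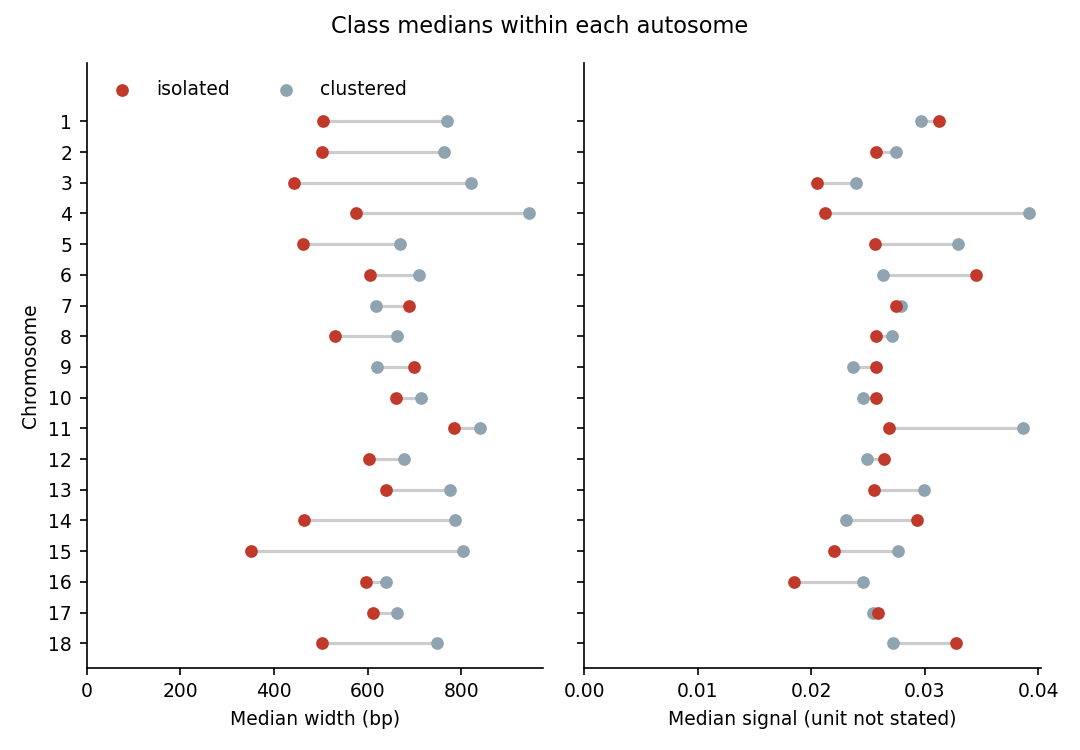
Each line is 1 of the 18 autosomes with at least 5 regions in both classes, with the median width in bp (left) and the median deposited signal (right) of isolated regions in red and clustered regions in grey. Isolated regions are narrower on 16 of 18 autosomes, while their signal is lower on 10 and higher on 8. Chromosome 19, with 2 isolated regions, is not shown.

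Signal times width, the total over a region, was lower in isolated regions. Its median corresponded to 6.0 read equivalents for isolated regions, against 8.93 for clustered regions (quartiles 5.0 and 14.4) and 7.0 for intermediate ones. In the deposited scale, the within-autosome difference was -4.96 (SD over autosomes 6.79, range -24.9 to 2.18), lower for isolated regions on 15 of 18 autosomes (exact Wilcoxon signed-rank test, adjusted p = 0.00126). The exceptions were chromosomes 6, 7 and 17. When isolated regions were compared only with clustered regions of the same 10 Mb window, an alternative added after the data were seen, the difference was -3.14 and no longer passed (exact Wilcoxon signed-rank test, adjusted p = 0.0513), with 11 of 18 autosomes lower. In the same comparison isolated regions were narrower by a median of -133.75 bp on 16 of 18 autosomes (exact Wilcoxon signed-rank test, adjusted p = 0.000572).

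Median width fell step by step with distance to the nearest region over the whole list of autosomal regions. The median was 837 bp for the 848 regions with a neighbour under 1 kb away, 742 bp from 1 to 10 kb and 677 bp from 10 to 50 kb. It was 654.5 bp from 50 to 100 kb, 627 bp from 100 to 250 kb and 612 bp from 250 to 500 kb. Among the isolated regions it was 583 bp for the 198 at 500 to 1000 kb and 530 bp for the 95 at 1000 kb or more. These 2 medians continued the order of the other 6 classes. The quartiles of both isolated classes were close, however, at 425 and 774 bp and at 400 and 785 bp. Within the isolated regions Spearman's rho of gap and width was 0.021, so the last step does not show a further fall with distance among them. The median signal was 0.0306 at under 1 kb, stayed between 0.0261 and 0.0284 in the classes from 1 to 1000 kb, and was 0.0249 at 1000 kb or more. Without chromosomes 4 and 11 it ranged from 0.0244 to 0.0282 over the 8 classes. These orders were described and not tested.

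**Figure D4:**
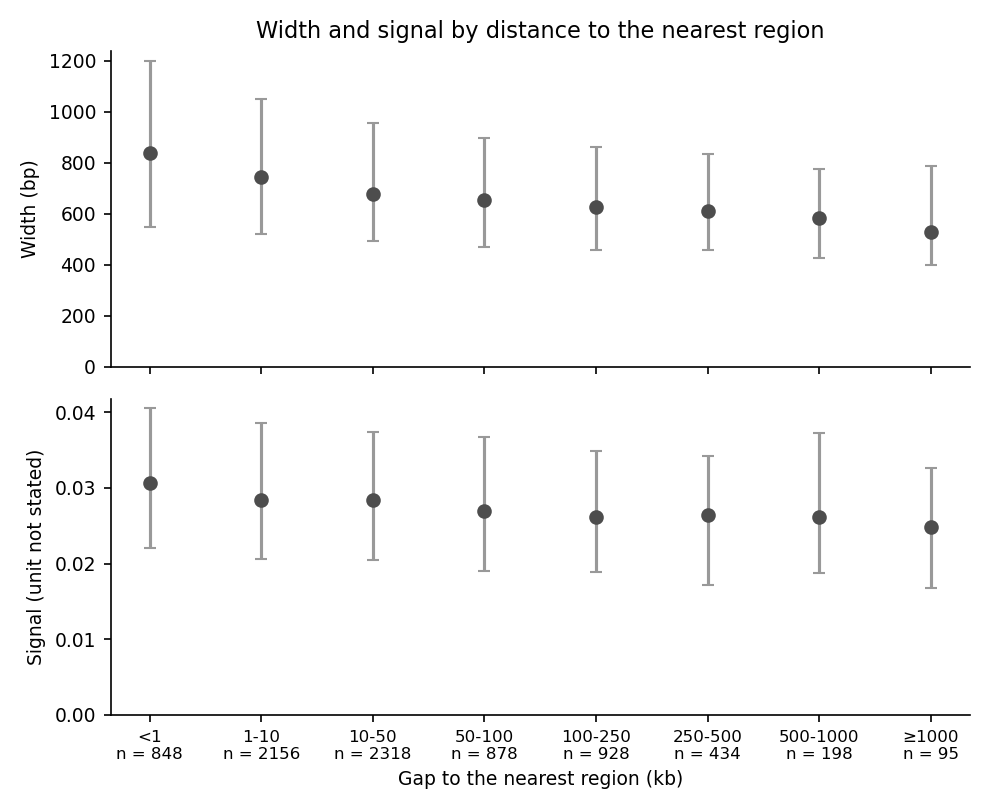
All 7855 autosomal regions are grouped by the gap to their nearest region in kb (horizontal axis), with points for the median and bars for the quartiles of width in bp (top) and of deposited signal (bottom). The last 2 classes are the isolated regions. Median width is lower in each class than in the one before it, 837 bp at the left and 530 bp at the right, and the quartiles of neighbouring classes overlap widely.

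Isolated regions were spread over all 19 autosomes, with 2 to 27 on each. Chromosome 2 held the most (27), followed by chromosomes 1, 3 and 9 with 21 each, and chromosome 19 the fewest (2). As a share of the regions of the autosome they were highest on chromosome 17 (15 of 203, 7.39%, exact 95% binomial interval 4.19 to 11.9), chromosome 16 (15 of 226, 6.64%) and chromosome 9 (21 of 317, 6.62%). The lowest shares were 0.631% on chromosome 19 (2 of 317, 0.0765 to 2.26), 1.56% on chromosome 4 (13 of 835) and 1.88% on chromosome 15 (10 of 533). The share was lower where regions were denser, with a Spearman's rho of -0.772 over the 19 autosomes. This is a description over autosomes, and density and share are counted from the same regions. Isolation is set by gaps, so a lower share on denser autosomes follows from the rule and is not a separate result. The 6 densest autosomes (4, 11, 13, 15, 18 and 19) held 22.2% of isolated and 47.0% of clustered regions on 26.4% of the length.

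Per length, isolated regions followed the density of the list less closely (Spearman's rho -0.318 over 19 autosomes, a description). They numbered 17.1 per 100 Mb on chromosome 9, 16.3 on chromosome 17 and 15.3 on chromosome 16, against 3.26 on chromosome 19, 7.88 on chromosome 5 and 8.39 on chromosome 4. Chromosome 11, with 4.62 regions per Mb, and chromosome 12, with 2.74, held nearly the same number of isolated regions per length (13.2 and 13.3 per 100 Mb). Chromosome 5 was sparse yet poor in isolated regions, with 2.30 regions per Mb and 12 isolated ones. Chromosome 16 had the same density of 2.30 regions per Mb on a shorter length and held 15. Along the autosomes, cut into 3 equal parts between the first and the last listed region, 92, 100 and 101 isolated regions lay in the first, middle and last part, against 889, 1008 and 1107 clustered regions. None of the isolated regions lay within 100 kb of position 3000000, where the listed part of several chromosomes begins.

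**Figure D5:**
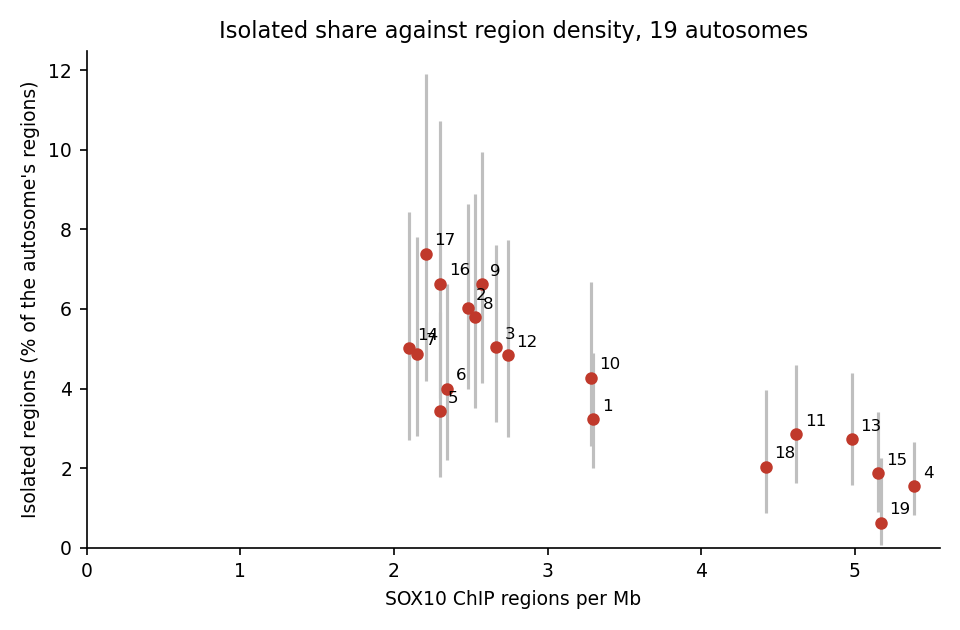
Each point is an autosome, labelled by its number, with the regions listed per Mb on the horizontal axis and the isolated share of its regions in percent on the vertical axis, and bars are exact 95% binomial intervals. The 11 autosomes with under 3 regions per Mb, at the left, have shares of 3.43 to 7.39%, and the 6 densest at the right have 0.631 to 2.85%. Isolation is set by gaps, so a fall of the share with density follows from the rule.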

How the data were processed

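ChIPmentation of biotin-tagged SOX10 from PY230 tumors was analysed as 1 deposited list for 2 ChIP samples and 1 control. The submitters' processing notes name Bowtie 0.12.8, SAMtools 1.3.1, MACS2 2.1.1, FastQC and mm9, with no parameters. How the authors scaled the deposited signal, set the calling threshold and handled duplicates is not stated there, so the step from reads to signal could not be checked. Starts are written 1-based.

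Gaps were taken between the edges of neighbouring regions. Width, signal and their product were compared as isolated minus clustered medians within autosomes with at least 5 regions of each class, by a two-sided exact Wilcoxon signed-rank test with Benjamini-Hochberg adjustment over 3 measures and a threshold of 0.05, checked on made-up data. These p-values describe 1 list and not the spread between samples. Intervals of shares are exact (Clopper-Pearson) at 95% and cover counting error only. The largest end on a chromosome stood for its length. Chromosome X was left out by the rule.

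Regions named are the 10 strongest isolated ones, the strongest of each autosome, the 5 most remote, widest and narrowest, and 3 on either side of the limit. Regions listed at 0 and the longest rows were named after their values were seen. The members, classes and tests were chosen with earlier results of these data known. Alternatives covered limits, classes, chromosomes and scale. Python 3.11.15, numpy 2.4.6, pandas 2.3.3, scipy 1.17.1 and matplotlib 3.10.9 were used.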

Additional observations from a re-analysis of the deposited data

How the results depend on the processing

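No paired analysis was possible because both ChIP samples went into a single deposited list, which also means that no sample could be left out. The lower width of isolated regions kept its direction and passed the exact signed-rank test under 14 of 14 alternatives (adjusted p from 8.01e-05 to 0.0162) and with each of 18 autosomes left out in turn. The lower summed signal passed under 13 of 14, the exception being clustered regions of the same 10 Mb window (-3.14, exact signed-rank test, adjusted p = 0.0513). The difference in signal passed only with isolation at 250 kb or more (-0.00133). It changed sign against all other autosomal regions (0.000109) and against clustered regions of the same window (0.00110), with adjusted p of 0.640 and 0.671 in the exact signed-rank test. The cause was not tested. The share of autosomal regions that are isolated was 9.26% at 250 kb and 1.21% at 1000 kb, against 3.73%. With only regions at or above the median signal kept and gaps taken anew between them, it was 10.9% (430 of 3930). Dropping regions lengthens the gaps, so this value does not say how often strong regions are isolated in the full list. The same-window comparison and the left-out autosomes were added after seeing the data. The median of 6.0 read equivalents limits the ranking of single isolated regions.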

Other observations

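Chromosome X, which the choice of members left out, held 74 regions, of which 24 lay 500000 bp or more from both neighbours.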
